A study of Mus musculus with 3 samples.

Results

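The 8 genes described here, Ifi27l2a, Isg15, Ifit1, Ifit3, Irf7, Irf1, Bst2 and Ifitm3, are interferon-stimulated genes, a named set of 8 among the 22100 gene symbols counted in each library. Their levels were read in fibroblast-like, smooth muscle-like, neural-like and epithelial-like cells of the mouse small intestine. The cells came from wild-type, untreated mice at E15.5 and E17.5, which are embryonic days, and at P7, which is 7 days after birth, in a study of how the gut elongates. Each stage gave 1 droplet library (Chromium 3′ v2), in which every captured RNA molecule carries a unique molecular identifier (UMI) and is read from its 3′ end. Viable cells had been sorted as Epcam+, an epithelial surface protein, or as negative for Epcam, CD31 and CD45, so the sort set the share of epithelial cells and depleted endothelial and blood cells. The sources used here do not give strain, sex or the number of animals pooled.

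Interferons are secreted proteins that warn cells of infection. Type I interferons (alpha, beta) and type III interferons (lambda) act through receptor-bound JAK kinases on a complex of STAT proteins with IRF9, which binds a DNA element called the interferon-stimulated response element (ISRE). Interferon gamma reaches its genes mainly through another DNA element, the gamma-activated site (GAS). The gut epithelium is known for its use of the lambda receptor chain Ifnlr1, and many interferon-stimulated genes have a basal level without infection.

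With 1 library per stage there was no replicate and no test between stages. All intervals given are 95% intervals of the counting error alone. The libraries held 8447, 11598 and 8391 cells and 93501273, 94023160 and 116038115 UMIs at E15.5, E17.5 and P7. The same 8447 barcode names were deposited with all 3 libraries, so cells were taken by their column and barcodes shared between libraries could not be counted. Cells were clustered per library without the 8 genes and without other interferon genes, and clusters were named from marker genes. Fibroblast-like cells numbered 2562, 4828 and 650 in stage order, smooth muscle-like cells 1609, 1330 and 550, neural-like cells 1035, 1980 and 242, and epithelial-like cells 1269, 1564 and 6011. Every marker of each class had at least 1 UMI in it, and their summed level was 3.11 to 193 times the highest in the other 3 classes. The same markers gave the names, so these values describe the classes and do not test them. Levels are UMIs of a gene per 1000000 UMIs of the class (CPM), and since reads come from the 3′ end they are not scaled to gene length. A stage difference is called when it is at least 2-fold, among genes with at least 50 UMIs over both stages. A gene can pass this minimum through the stage where it is higher, and the share of all genes uses the same minimum.

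Of the 8 genes, 7 had a promoter entry in the RefSeq table used (build GRCm38.p6, 250 bases before to 50 after the start), all but Ifi27l2a. The ISRE core was searched as GAAANNGAAA on both strands, and the GAS core as TTCNNNGAA, which reads the same on both; matches of either may overlap. The ISRE core was present in 1131 of 32851 promoter windows of this length (3.44%) and the GAS core in 2726 (8.30%). Among the 7 genes, the ISRE core was present in 5 (Isg15, Ifit1, Ifit3, Bst2 and Ifitm3) and the GAS core in 3 (Irf1, Bst2 and Ifitm3). The stretches with these matches are printed 5′ to 3′ on the gene's own strand, to show where they lie; no core is shared by all 6 genes. Capitals mark the matched bases. Each stretch of 120 bases lies in the 250 bases before the start, and that of Ifitm3 is 30 bases after it.
Isg15 (chr4:156200864-156200983, minus strand): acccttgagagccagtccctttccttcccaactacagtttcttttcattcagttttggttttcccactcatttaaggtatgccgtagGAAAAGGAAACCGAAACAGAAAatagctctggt
Ifit1 (chr19:34640724-34640843, plus strand): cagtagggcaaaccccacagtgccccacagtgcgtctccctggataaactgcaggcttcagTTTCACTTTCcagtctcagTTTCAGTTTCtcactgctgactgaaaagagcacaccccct
Ifit3 (chr19:34583364-34583483, plus strand): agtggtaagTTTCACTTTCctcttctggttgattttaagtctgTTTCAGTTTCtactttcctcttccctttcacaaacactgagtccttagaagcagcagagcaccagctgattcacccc
Bst2 (chr8:71537518-71537637, minus strand): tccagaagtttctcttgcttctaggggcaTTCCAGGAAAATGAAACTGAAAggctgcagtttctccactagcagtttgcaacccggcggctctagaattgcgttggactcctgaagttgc
Irf1 (chr11:53769849-53769968, plus strand): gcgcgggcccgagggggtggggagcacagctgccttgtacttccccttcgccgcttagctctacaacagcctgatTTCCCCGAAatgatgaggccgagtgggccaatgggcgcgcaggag
Ifitm3 (chr7:141010715-141010744, minus strand): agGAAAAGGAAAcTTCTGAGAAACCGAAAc
Isg15 carries 3 overlapping ISRE cores in a row, Ifit1 and Ifit3 each 2 on the opposite strand, and Bst2 2 overlapping ones with a GAS core at their edge. Ifitm3 has 2 ISRE cores with a GAS core between them, and Irf1 a single GAS core and no ISRE core. The Irf7 window held neither core, which says only that these letters are not in this window.

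**Figure D1:**
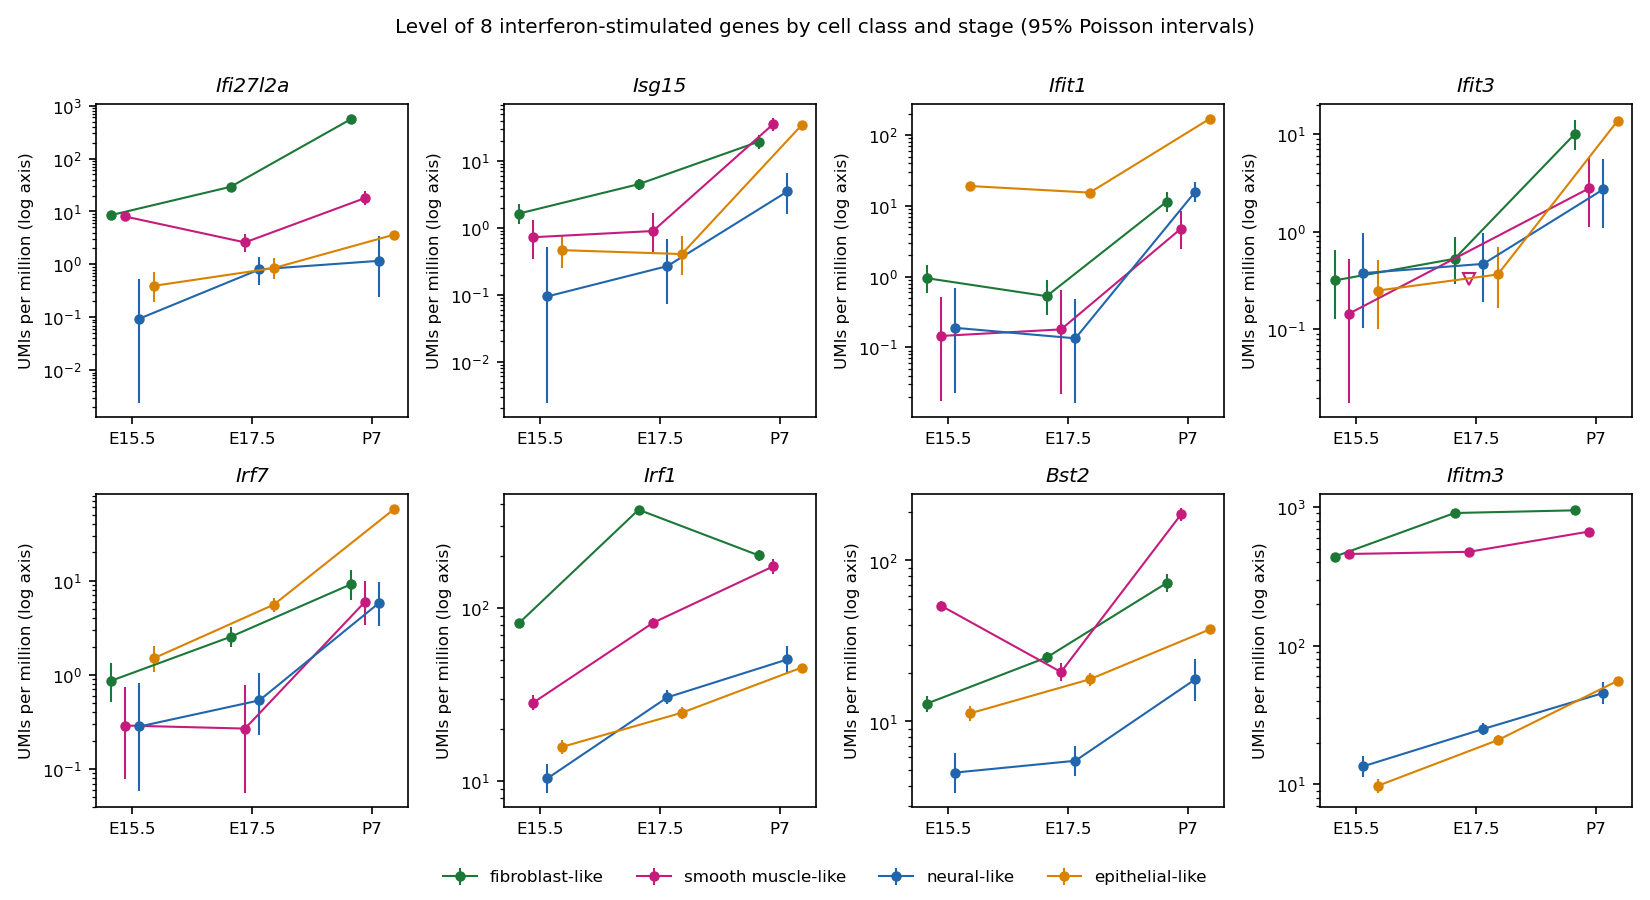
Level of each of the 8 genes (CPM of the class, log axis) at E15.5, E17.5 and P7 in the 4 cell classes; bars are exact 95% Poisson intervals, and the open triangle is the upper bound where smooth muscle-like cells had no Ifit3 UMI at E17.5. Ifi27l2a is highest in fibroblast-like cells at E17.5 and P7 but not apart from smooth muscle-like cells at E15.5, Ifit1 and Irf7 at P7 are highest in epithelial-like cells, and Irf1 in fibroblast-like cells is highest at E17.5.

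From E17.5 to P7 the epithelial-like cells showed the broadest difference: 7 of the 8 genes were called higher and 0 lower, against 11.6% and 8.48% of all 13943 genes read in these cells. The median log2 ratio of the 8 genes was 2.73, beside 0.07 over all genes read. Fibroblast-like cells had 5 of 7 genes read called higher at P7 and 0 lower (9.84% and 5.34% of all genes), with medians of 1.85 and 0.11. In smooth muscle-like cells 4 of 5 were called higher and 0 lower (17.1% and 6.1% of all genes), with medians of 2.78 and 0.30. Isg15 there (10 and 89 UMIs) also passed the minimum through P7 alone. With visceral muscle clusters alone (88 cells at P7), 0 of 3 read were called higher and 2 lower. The share of all genes was not computed for these clusters. Of the 2, Bst2 rested on 4 UMIs at P7, and its ratio was within counting error. Neural-like cells had 1 of 3 called higher, Bst2, and 0 lower (18.7% and 9.85% of all genes), with medians of 0.86 and 0.20. The other 5 genes had too few UMIs in neural-like cells to be read, and the count there was 3 with a minimum of 20 UMIs or without doublet removal and 5 with no minimum beyond 3 UMIs.

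Between the embryonic stages, fibroblast-like cells had 5 of 6 genes read called higher at E17.5 and 0 lower (6.22% and 2.39% of all genes), with a median log2 ratio of 1.51 beside -0.10 over all genes. The 5 became 3 at clustering resolution 2 or with all variable genes, and 2 when cells were classed one by one by their markers. Epithelial-like cells had 2 of 5 called higher, Irf7 and Ifitm3, and 0 lower (7.13% and 3.66% of all genes), with medians of 0.70 and -0.11. In smooth muscle-like cells Irf1 was the 1 of 4 called higher and Ifi27l2a and Bst2 were the 2 called lower (3.28% and 11.1% of all genes), with medians of -0.66 and -0.36. Neural-like cells had 1 of 3 called higher, again Irf1, and 0 lower (4.93% and 1.33% of all genes), with medians of 0.89 and -0.06. Both steps share the E17.5 library, so a high or low level there enters both. Isg15 (36 and 119 UMIs) and Irf7 (19 and 67) in fibroblast-like cells passed the minimum through E17.5 alone, as did Irf7 (42 and 137) in epithelial-like cells. Ifi27l2a in smooth muscle-like cells (111 and 29), called lower, passed through E15.5 alone.

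**Figure D2:**
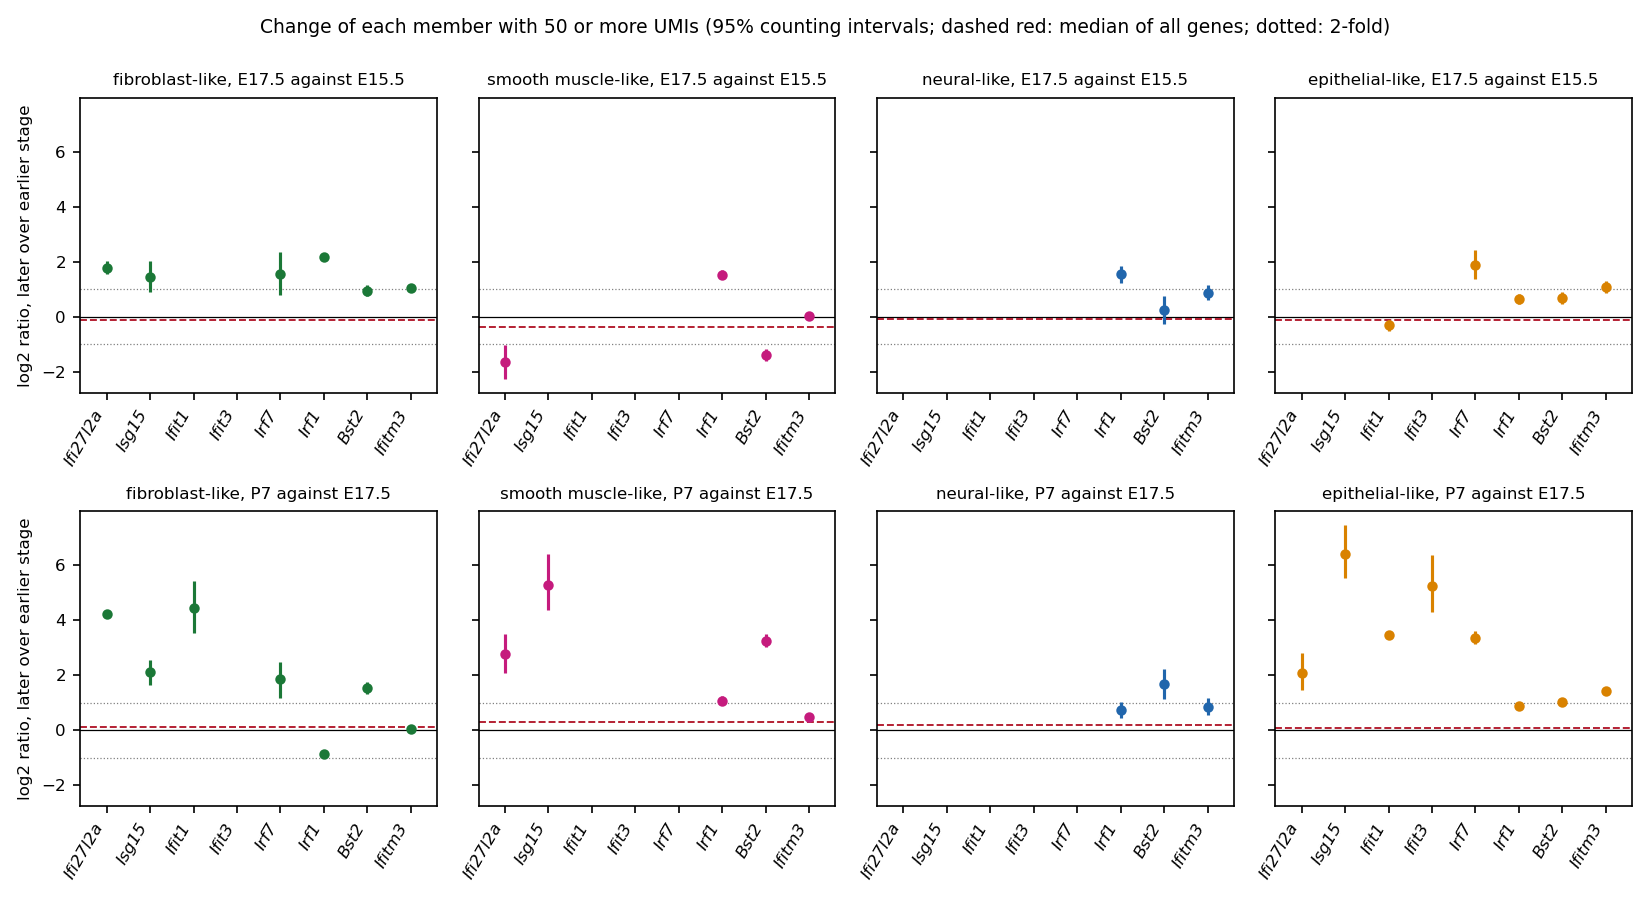
Log2 ratio of the later over the earlier stage for each gene with at least 50 UMIs over both stages, per cell class (columns) and step (rows); bars are exact 95% counting intervals, the dashed red line is the median of all genes read and the dotted lines mark 2-fold. At P7 in epithelial-like cells all 8 genes lie above the median of all genes, with Isg15 at 6.42 and Irf1 lowest at 0.87.

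Ligands, receptors and signal transducers come first in the pathway. Of 20 interferon genes listed, 3 (Ifnb1, Ifnk and Ifng) are in the gene list of the files, and the others were not analysed here. Ifnb1 had 0 UMIs in all 4 classes at all stages, Ifng had 1 UMI, in neural-like cells at E17.5, and Ifnk had 2, in epithelial-like cells at P7. All 6 receptor chains were measured. Ifnar1, a type I receptor chain, stood at 35.6, 39.2 and 48.0 in fibroblast-like cells in stage order, at 24.7, 15.4 and 29.9 in smooth muscle-like, at 25.8, 20.8 and 24.6 in neural-like and at 14.9, 15.7 and 23.0 in epithelial-like cells. Ifnar2, its partner, was highest in fibroblast-like cells, at 56.6, 89.4 and 100.4, and reached 37.6 in epithelial-like cells at P7. Ifnlr1, the chain particular to lambda interferons, was read at 4.72, 3.17 and 6.84 in epithelial-like cells and at 0.738 or less in the other classes at every stage. Its partner Il10rb was at 36.8, 46.8 and 81.6 in epithelial-like cells. The gamma receptor chains Ifngr1 and Ifngr2 were at 63.3 and 116.5 in epithelial-like cells at P7 and at 46.5 and 44.8 in fibroblast-like cells. So all classes held transcripts of the type I and gamma receptors, while Ifnlr1 was found mainly in epithelial-like cells. None of the 5 or 6 receptor genes read in a class was called at E17.5, and at P7 2 of 6 were called higher in epithelial-like cells (11.6% of all genes), 0 of 5 in fibroblast-like (9.84%), 3 of 5 in smooth muscle-like (17.1%) and 2 of 5 in neural-like cells (18.7%). Their median log2 ratios were 0.68, 0.29, 1.06 and 0.24, beside 0.07, 0.11, 0.30 and 0.20 over all genes.

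The transducers are JAK kinases and the STAT and IRF9 proteins they act on. Irf9, the DNA-binding partner of STAT proteins, was at 4.11, 6.14 and 27.3 in epithelial-like cells and at 5.72, 12.7 and 28.9 in fibroblast-like cells. Stat2 stood at 6.68, 9.79 and 24.5 in epithelial-like cells and at 10.1, 11.6 and 22.7 in fibroblast-like cells. Jak1, the kinase shared by all 3 receptor types, was between 53.8 and 294 in every class and stage, Jak2 between 10.7 and 22.1, and Tyk2 between 1.98 and 10.3. Irf9 and Stat2 thus had their highest level at P7 in both classes.

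Irf7 and Irf1 encode transcription factors of the interferon response. Irf7 (ENSMUSG00000025498, chr7:141262706-141266481), known as the main driver of type I interferon genes once induced, was highest of the 4 classes in epithelial-like cells at E17.5 and P7. It stood at 1.501 (1.08 to 2.03) in epithelial-like cells at E15.5, followed by 5.57 (4.67 to 6.58) at E17.5 and, after birth, by 57.2 (55.7 to 58.7) at P7. The log2 ratios were 1.89 (1.38 to 2.43) and 3.36 (3.12 to 3.62), so Irf7 was higher at each step. Cells with at least 1 Irf7 UMI made up 2.92%, 7.48% and 40.2% of epithelial-like cells, or 0.480%, 2.09% and 13.5% after each cell was thinned to 3000 UMIs. In fibroblast-like cells Irf7 was lower, at 0.862, 2.54 and 9.13, and in smooth muscle-like and neural-like cells it stayed between 0.269 and 0.537 before birth and reached 5.97 and 5.85 at P7. Those 2 P7 levels are 10.4% and 10.2% of the epithelial level, beside 0 to 10.3% for 18 epithelial marker genes in smooth muscle-like cells and 2.14% to 32.5% in neural-like cells, so the first lies just above and the second inside the range in which epithelial markers were found there. In fibroblast-like cells the share was 16.0%, above the 7.03% of the highest marker.

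Irf1 (ENSMUSG00000018899, chr11:53770014-53778374), a factor that interferon gamma and other inflammatory signals induce quickly, had another pattern. In fibroblast-like cells it was at 81.8 (78.0 to 85.6) at E15.5, followed by 372 (365 to 379) at E17.5 and, after birth, by 203 (188 to 218) at P7, with UMIs in 39.5%, 60.5% and 43.4% of cells. It was thus highest at E17.5: the first log2 ratio was 2.19 (2.11 to 2.26), and the second, -0.88 (-0.99 to -0.76), is short of the 2-fold call. Smooth muscle-like cells went from 28.4 to 82.5 and 174.8, neural-like cells from 10.4 to 30.6 and 50.7, and epithelial-like cells from 15.8 to 24.9 and 45.5. Among fibroblast-like clusters Irf1 lay between 48.7 and 91.7 at E15.5, with 132.7 as the lowest and 533 as the highest E17.5 value, and 37.2 and 350 for P7, so no E15.5 cluster reached the lowest E17.5 one. The E17.5 cluster with the highest Irf1, 358 cells led by the chemokine genes Cxcl1 and Ccl11, also had the highest Isg15 of that class and stage, at 18.4. Its fibroblast marker score, 3.79, was close to its score for pericytes, cells that wrap small vessels, at 3.28. The pericyte markers Pdgfrb, Notch3, Kcnj8 and Ndufa4l2 were also among its leading genes. At P7 the neural-like total joined a cluster of 176 cells led by the neuronal genes Stmn2 and Vip with Irf1 at 18.1 and a cluster of 66 cells led by Fabp7, a gene of glial cells, and Apoe, with Irf1 at 460. A list of 14 immediate-early and heat shock genes that respond to cell dissociation, chosen after results were seen, summed to 6769, 13799 and 20443.5 CPM in fibroblast-like cells. Of its genes, 8 were called higher there at E17.5 (6.22% of all genes). At P7 2 were called higher and 2 lower (9.84% and 5.34% of all genes). The list summed to 2348, 9150 and 5663 in neural-like cells, 4340, 7880 and 20552.3 in smooth muscle-like cells and 763, 1233 and 2991 in epithelial-like cells. The part of this response in the Irf1 levels was not tested.

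Isg15, Ifit1 and Ifit3 encode effectors in the cytosol: Isg15 a ubiquitin-like protein that is attached to other proteins, and the Ifit proteins RNA binders that act on foreign RNA. Ifit1 (ENSMUSG00000034459, chr19:34640871-34650009) was the one of the 3 that epithelial-like cells already held before birth. Its level there was 19.1 (17.53 to 20.8) at E15.5, followed by 15.4 (13.9 to 17.1) at E17.5 and, after birth, by 171 (169 to 174) at P7. E17.5 against E15.5 gave a log2 ratio of -0.31 (-0.50 to -0.12), and P7 against E17.5 one of 3.47 (3.32 to 3.62), which is 11.1-fold. Shares of cells with an Ifit1 UMI were 21.0%, 11.9% and 45.7%, or 5.12%, 3.53% and 26.3% after thinning. In the other 3 classes Ifit1 was at 0.953 or less before birth. Of its 21 UMIs in fibroblast-like cells at E15.5, 20 came from 1 cell. At P7 it stood at 11.5, 4.78 and 16.0 in fibroblast-like, smooth muscle-like and neural-like cells, which is 6.71%, 2.79% and 9.34% of the epithelial level and inside the range of the 18 epithelial markers in each class (1.98% to 7.03% in fibroblast-like cells). The log2 ratio of Ifit1 in fibroblast-like cells, 4.44 (3.53 to 5.43), thus has as its P7 side a level that epithelial markers also reach there, and 16 of its 39 UMIs came from 1 cell; the part of free RNA in it was not tested.

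Isg15 (ENSMUSG00000035692, chr4:156199424-156200818) was close to absent from the embryonic epithelium and was detected in it at P7. It was at 0.465 (0.247 to 0.794), 0.406 (0.195 to 0.747) and 34.7 (33.5 to 35.9) in epithelial-like cells, from 13, 10 and 3339 UMIs. The second step was 85.3-fold, a log2 ratio of 6.42 (5.53 to 7.48), while at the first step the gene had too few UMIs to be read. Smooth muscle-like cells reached the same level at P7, 35.5 (28.5 to 43.6), from 0.725 and 0.898 before birth, with a log2 ratio of 5.30 (4.36 to 6.41). Fibroblast-like cells had 1.63, 4.50 and 19.4, so they held more Isg15 than the other 3 classes before birth. Immune-like cells (14.4 and 9.96), pericyte-like cells (3.83 and 9.88) and some unnamed clusters held more than fibroblast-like cells at the embryonic stages. At P7 fibroblast-like cells held less than smooth muscle-like and epithelial-like cells. Neural-like cells were lowest at P7, at 3.51 (1.61 to 6.66), from 9 UMIs. The 2 neural-like clusters differed, with Isg15 at 1.68 in that led by Stmn2 and 26.4 in that led by Fabp7. The fibroblast and smooth muscle levels at P7 are 56.1% and 102% of the epithelial level, above the 10.3% or less at which epithelial markers were found in those classes.

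Ifit3 (ENSMUSG00000074896, chr19:34583531-34588731) was barely detected before birth, at 0.530 or less in each of the 4 classes. In epithelial-like cells it went from 0.366 (0.167 to 0.694) at E17.5 to 13.8 (13.1 to 14.6) at P7, a log2 ratio of 5.24 (4.31 to 6.37). Smooth muscle-like cells had 0 Ifit3 UMIs at E17.5 (upper bound 0.331) and 2.79 at P7. The fibroblast level of 10.01 at P7 came from 34 UMIs, of which 20 were in 1 cell, so it describes few cells. Counts of Ifit3 may be incomplete: 26 of 410 windows of 91 bases in its last 500 bases (6.34%) also occur in the neighbouring copy Ifit3b. No other gene of the set shared such a window with another gene.

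Within the P7 epithelium most of the 8 genes differed between absorptive and crypt cells. By their markers, 7 clusters (2941 cells) were enterocyte-like, the absorptive cells of the villus, and 5 (2059 cells) were crypt-like, with stem and dividing cells. Ifit1 was at 308 (304 to 313) in the first and 7.17 (6.29 to 8.14) in the second, 43.0-fold apart, and 85.5% against 7.19% of cells held a UMI. Isg15 was at 60.7 and 3.32 (18.3-fold), Ifit3 at 24.6 and 1.05 (23.5-fold), Irf7 at 93.3 and 8.31 (11.2-fold) and Bst2 at 58.0 and 10.8 (5.36-fold). The lowest enterocyte-like cluster exceeded the highest crypt-like one for Ifit1 (96.3 against 13.4), Isg15 (17.46 against 5.66), Ifit3 (6.64 against 2.04) and Irf7 (27.2 against 11.4), but not for Bst2 (15.9 against 16.5). Ifitm3 ran the other way, at 4.84 (4.26 to 5.48) in enterocyte-like and 139 (135 to 143) in crypt-like cells, 28.7-fold higher in the crypt, with cluster ranges of 2.12 to 8.74 and 92.4 to 181 that did not meet. Ifi27l2a was also higher in the crypt, at 6.40 against 1.61, and Irf1 differed little, at 37.8 against 52.7. Median depth was 17305 UMIs per cell in enterocyte-like and 14696 in crypt-like cells.

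**Figure D3:**
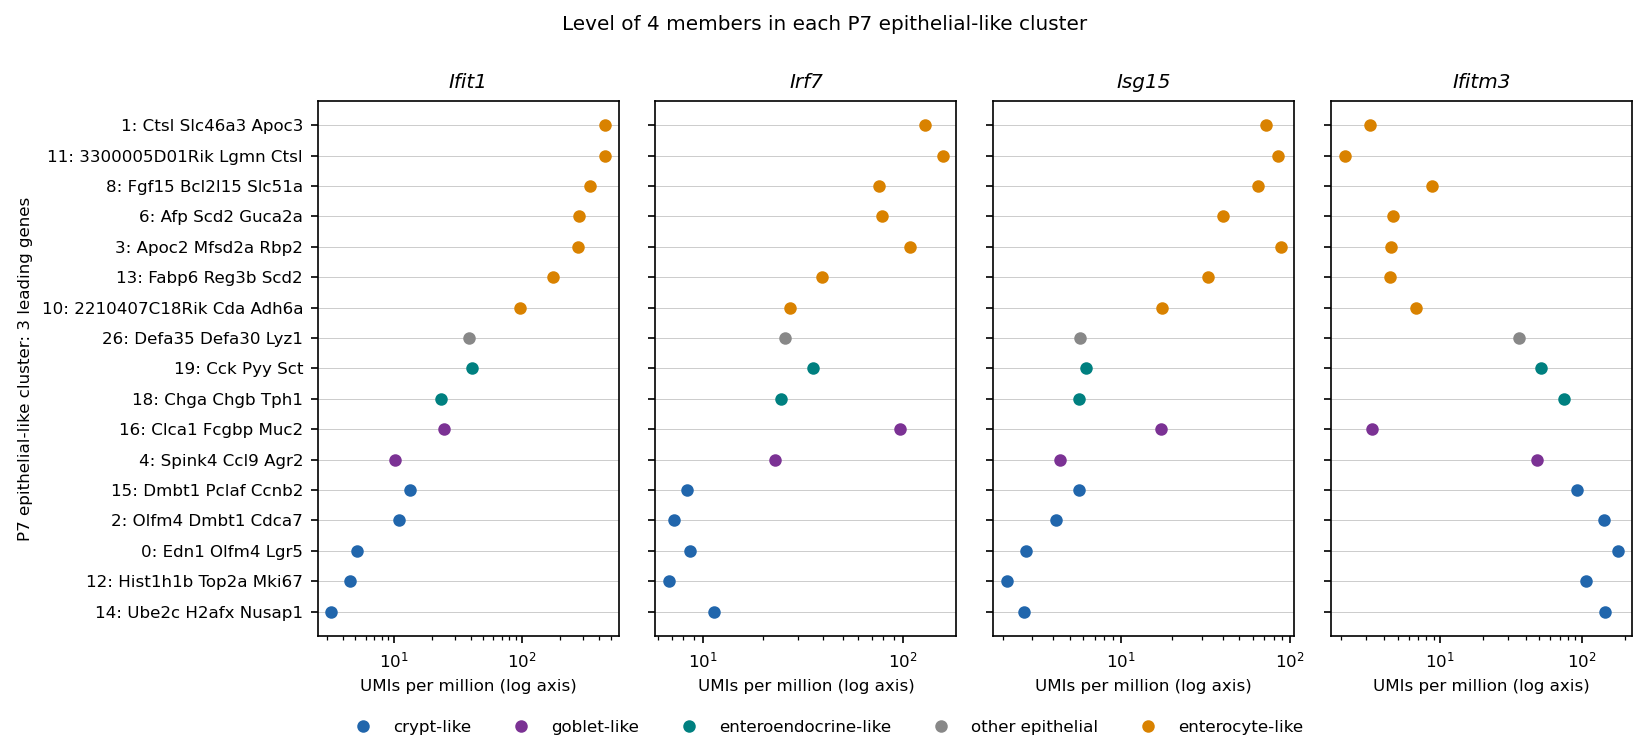
Level of Ifit1, Irf7, Isg15 and Ifitm3 (CPM of the cluster, log axis) in each epithelial-like cluster at P7, labelled with its number and 3 leading genes and coloured by the subtype its markers gave. The 7 enterocyte-like clusters are to the right of the 5 crypt-like ones for Ifit1, Irf7 and Isg15 and to the left of them for Ifitm3.

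Goblet-like cells, which make mucus (707 cells in 2 clusters), had Irf7 at 37.3, Ifit1 at 13.0, Isg15 at 6.87 and Ifitm3 at 39.6, and the cluster of 203 cells led by Clca1, Fcgbp and Muc2 had Irf7 at 97.2 and Ifitm3 at 3.33, both inside the range of the enterocyte-like clusters, while the other goblet-like cluster had 22.8 and 48.4. Enteroendocrine-like cells, which make hormones (257 cells), had Ifit1 at 30.3, Irf7 at 29.1 and Ifitm3 at 65.3. A cluster of 47 cells led by defensin genes and Lyz1, products of Paneth cells, had Ifit1 at 38.8. Ifit1 in these cells was thus above the pooled crypt-like level and below that of every enterocyte-like cluster.

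The same order of Ifit1 was present before birth. At E17.5 the enterocyte-like cluster (362 cells, led by Fabp1 and Apoa4) had Ifit1 at 49.1 (43.8 to 55.0), with UMIs in 37.6% of cells, against 2.27 (1.21 to 3.89) in the crypt-like cluster of 285 cells. That cluster, led by Cps1, Fgfbp1 and Dmbt1, had a score of 2.28 on crypt markers that include the cell division genes Mki67 and Top2a. Olfm4 and Lgr5 led some P7 crypt-like clusters but not this E17.5 one, so the crypt-like groups of the 2 stages may differ in cell type. At E15.5 the cluster led by Fabp1 and Apoa1 (521 cells) had 39.4, and the larger cluster led by Cps1 (585 cells) had 4.56. Isg15 was near 0 in all of them, at 0.644 in the E17.5 enterocyte-like cluster, so Ifit1 was detected there without Isg15. From E17.5 to P7 within enterocyte-like cells Ifit1 went from 49.1 to 308, a log2 ratio of 2.65 (2.49 to 2.82), Isg15 from 0.644 to 60.7, 6.56 (5.20 to 8.43), and Irf7 from 11.1 to 93.3, 3.07 (2.73 to 3.43). Ifitm3 was lower at P7 in these cells, at 25.6 and then 4.84, -2.40 (-2.70 to -2.11), while in crypt-like cells it went from 11.4 to 139, 3.61 (3.26 to 3.99). The 10 fibroblast markers were found in epithelial-like cells at 0.839% to 1.93% of their fibroblast level at E17.5. At P7 the range was 0.0629% to 0.121%. Ifitm3 stood at 906 and 947 in fibroblast-like cells at these stages, and the part of their free RNA in its epithelial levels was not tested. The median log2 ratio of all genes read was 0.15 in enterocyte-like and 0.13 in crypt-like cells. Enterocyte-like clusters held 23.1% of epithelial-like cells at E17.5 and 48.9% at P7, so the class totals of the 2 stages also differ in make-up.

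Bst2 and Ifitm3 encode membrane proteins: Bst2, or tetherin, holds budding virus at the cell surface, and Ifitm3 blocks virus entry from endosomes and is known for a basal level in stem and mesenchymal cells. Ifitm3 (ENSMUSG00000025492, chr7:141009586-141010770) was abundant in fibroblast-like cells, at 439 (430 to 448), 906 (895 to 918) and 947 (915 to 981), with UMIs in 94.0%, 93.7% and 94.2% of cells. Smooth muscle-like cells had 459, 476 and 666, with a log2 ratio of 0.49 (0.41 to 0.57) at P7. In neural-like cells it was at 13.5, 25.1 and 45.6 and in epithelial-like cells at 9.76, 20.8 and 55.9, where the 2 log2 ratios were 1.10 (0.88 to 1.31) and 1.42 (1.29 to 1.56). The 2 mesenchymal classes were therefore above the other 2 at every stage, and the fibroblast level was 2.07-fold higher at E17.5 than at E15.5 and 1.05-fold higher at P7 than at E17.5. At P7 the cluster led by Fabp7 had Ifitm3 at 369.9 and that led by Stmn2 19.8.

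Bst2 (ENSMUSG00000046718, chr8:71534255-71537456) in smooth muscle-like cells was at 52.4 (48.7 to 56.4) at E15.5, followed by 20.3 (17.7 to 23.1) at E17.5 and, after birth, by 193 (176 to 211) at P7, with UMIs in 19.3%, 12.2% and 47.8% of cells. The log2 ratios were -1.37 (-1.59 to -1.15) and 3.25 (3.02 to 3.49), lower and then higher. Different clusters held most of the class at the 3 stages, so the totals do not follow 1 kind of muscle. Clusters with Actg2 or Des, contractile genes of visceral muscle, among their leading genes had Bst2 at 89.9, 14.2 and 6.66, the last from 4 UMIs in 88 cells. The rule leaves out an E17.5 smooth muscle-like cluster of 107 cells led by Grem1, with Bst2 at 118. Grem1 was also among the leading genes of the E15.5 visceral clusters. In the visceral clusters by this rule the second log2 ratio was -1.09 (-2.99 to 0.30), the reverse of the total, though the interval includes 0. The P7 total came from a cluster of 429 cells led by Eln, Tagln and Acta2, with Bst2 at 255, and one of 33 cells with 224. The same holds for other genes of the set: at P7 Isg15 was at 47.2 in the 429-cell cluster and 3.33 in the visceral one, and Irf1 at 228 and 25.0, so that in the visceral clusters Irf1 was lower at P7 than at E17.5, with a log2 ratio of -1.41 (-2.25 to -0.67). With the visceral clusters alone, 0 of 3 genes read were called higher at P7 and 2 lower, and the share of all genes was not computed. Endothelial markers summed to 12.8, 12.9 and 235 in smooth muscle-like cells in stage order; Pecam1, Cdh5, Cldn5 and Emcn were at 0 there at P7, and their part in the levels was not tested.

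**Figure D4:**
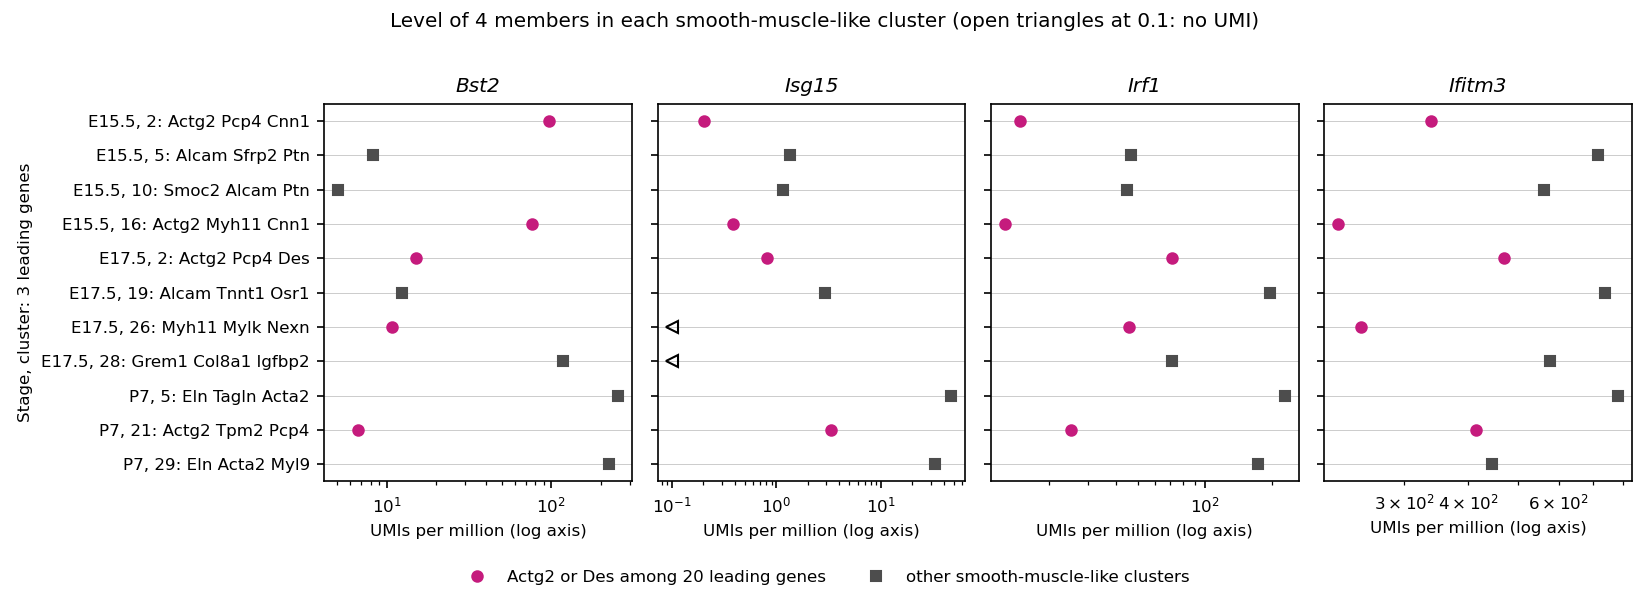
Level of Bst2, Isg15, Irf1 and Ifitm3 (CPM of the cluster, log axes) in each smooth muscle-like cluster, labelled with stage, number and 3 leading genes; filled circles have Actg2 or Des among their 20 leading genes and open triangles mark no UMI. For Bst2 the visceral clusters are at 76.4 and 97.1 at E15.5, at 10.8 and 15.0 at E17.5 and at 6.66 at P7. A Grem1-led cluster outside them is at 118 at E17.5, and the 2 Eln-led clusters at P7 are at 224 and 255.

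In the other classes Bst2 had its highest level at P7. Fibroblast-like cells had 12.9 (11.4 to 14.5), 25.0 (23.1 to 27.0) and 72.4 (63.7 to 82.1), with log2 ratios of 0.95 (0.75 to 1.16) and 1.54 (1.32 to 1.75). Epithelial-like cells had 11.2, 18.3 and 37.3, and the second step was 2.04-fold, just past the call. The subtypes differed: from E17.5 to P7 Bst2 went from 23.2 to 58.0 in enterocyte-like cells, a log2 ratio of 1.32 (1.08 to 1.57), and from 15.9 to 10.8 in crypt-like cells, -0.56 (-0.89 to -0.21). The E17.5 crypt-like side is the 1 cluster led by Cps1, which may differ in cell type from those at P7. Neural-like cells had 4.82, 5.70 and 18.3, and their first step, 0.24 (-0.27 to 0.77), was within counting error. At P7 Bst2 was at 15.2 in the neural-like cluster led by Stmn2 and 58.1 in that led by Fabp7.

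Ifi27l2a (ENSMUSG00000079017, chr12:103442167-103443680) encodes a small hydrophobic protein of the interferon-induced Ifi27 family. It set fibroblast-like cells apart from the other classes compared at E17.5 and P7. Its level there was 8.48 (7.31 to 9.79) at E15.5, followed by 29.2 (27.2 to 31.4) at E17.5 and, after birth, by 551 (527 to 577) at P7. The log2 ratios were 1.79 (1.55 to 2.02) and 4.24 (4.11 to 4.36), the second 18.9-fold. At P7, 64.0% of fibroblast-like cells held an Ifi27l2a UMI against 1.24% of neural-like cells, at median depths of 4851 and 9905.5 UMIs per cell. After thinning, the shares of fibroblast-like cells were 1.94%, 6.02% and 56.9%. Every fibroblast-like cluster at P7 was above every one at E17.5: the 5 clusters ran from 337 to 1210, and the 9 at E17.5 from 6.27 to 89.5. The highest P7 cluster was 14 cells led by Ccl21a and Ccl19. Next came 75 cells led by Adamdec1, Col6a2 and Col6a1, at 937. Ifi27l2a itself and the interferon gamma GTPase gene Iigp1 were also among the leading genes of those 75 cells.

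In the other classes compared Ifi27l2a was low. Smooth muscle-like cells had 8.05 (6.62 to 9.69), 2.60 (1.74 to 3.74) and 17.9 (13.1 to 23.98), so it was called lower at E17.5, with a log2 ratio of -1.63 (-2.27 to -1.03), and higher at P7. In the visceral clusters alone the first ratio was 0.10 (-0.99 to 1.22), on 14 and 18 UMIs. Epithelial-like cells had 0.393, 0.853 and 3.64, and neural-like cells 0.0944, 0.805 and 1.17, from 1, 12 and 3 UMIs. Of the 4 classes, only fibroblast-like cells at P7 held the transcript in over 1 cell in 10. Within the smooth muscle-like class, 18.2% of the 88 visceral cells at P7 held it. Outside the 4 classes it was held by 36.1% of the E15.5 and 18.4% of the E17.5 immune-like cells. At P7 it was held by 83.0% of an unnamed cluster of 393 cells led by Adamdec1. The best marker score of this cluster was for fibroblasts (4.38, against 3.53 for smooth muscle). An unnamed cluster of 67 cells led by Eln had it in 25.4% of cells. Of 34 interstitial cell of Cajal-like cells at P7, 20.6% held it.

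Blood and vessel cells also express several of these genes, and the sort left some. In the embryonic libraries immune-like clusters of 36 and 168 cells had Ifi27l2a at 113.6 and 38.6 and Bst2 at 73.3 and 120.4. The 11 immune markers summed to 22.6 to 64.3 CPM in the 4 classes before birth and to 5.18 to 70.2 at P7, against 4518 and 3349 in the immune-like clusters. The 70.2 is that of epithelial-like cells. Csf1r, which is among the 11, was a leading gene of some P7 enterocyte-like clusters, so this sum does not measure immune RNA alone. At P7, Ptprc, Tyrobp, C1qb, Cdh5 and Emcn had 0 UMIs in the whole library, so a 0 for them in a class gives no information on immune or endothelial cells there. Leaving out cells with 3 or more immune marker UMIs took away 5 to 41 cells per class before birth, and none of the 8 counts between embryonic stages moved. At P7 it took away only 0 to 8 cells per class, so it says nothing of that library.

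Whether the epithelial signal came from few cells or many was read from 4 genes, Isg15, Ifit1, Ifit3 and Irf7. At P7, 2132 of 6011 epithelial-like cells (35.5%) had UMIs of at least 2 of them, against 16 of 1269 at E15.5 and 25 of 1564 at E17.5. With every cell thinned to 3000 UMIs, 644 of 5871 P7 cells had at least 2, where independent detection over the class gives 394, and 162 had at least 3, where it gives 22.9. Taken cluster by cluster within the 7 enterocyte-like clusters, 625 of 2909 cells had at least 2 and independent detection gives 626. In the 5 crypt-like clusters 8 cells had at least 2, and independent detection gives 2.35. The excess over the class was thus not present inside the enterocyte-like clusters, which held most of these cells. In fibroblast-like, smooth muscle-like and neural-like cells at P7, 14, 6 and 6 cells had at least 2 of the 4.

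Outside these 4 genes, the P7 epithelial-like cells with at least 2 of them were richest, relative to the other epithelial-like cells, in D830030K20Rik (2.22 against 0.0882), Enpp7 (18.7 against 0.971), Clec4f (8.10 against 0.424), Lim2 (5.55 against 0.300) and Slc7a15 (1.82 against 0.106). Enpp7 is an enzyme of the enterocyte brush border that digests sphingomyelin. At E17.5 the 25 such cells were richest in Mirg, Nox4, Slc46a3, Abcb11 and Ace, the last at 151 against 16.3; Ace is a brush border peptidase.

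Over the 12 points of 4 classes and 3 stages, the genes with levels most like Ifi27l2a, by Pearson correlation of log2(level + 10) among 13013 genes, were Igfbp6 (0.982), Slc8b1 (0.971) and C1ra (0.970). For Isg15 they were Fam71a (0.977), Tmem140 (0.956) and A530013C23Rik (0.941), and for Bst2 Tmem250-ps (0.922), Fyco1 (0.910) and Tpcn2 (0.904). These are descriptions over points that share 3 libraries.

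Further genes of the response were read from lists chosen with earlier results of these data known. Of 40 further interferon-stimulated genes listed, 37 were in the files. In epithelial-like cells 33 were read at P7 against E17.5, of which 26 were called higher and 2 lower (11.6% and 8.48% of all genes), with a median log2 ratio of 2.66 beside 0.07 over all genes. Ranked with counts under 3 UMIs set to 3, the largest were Ifi44, from 0.0406 (1 UMI) to 5.29, a log2 ratio of 7.02 (4.54 to 12.33), Rtp4, from 0.813 to 34.6, and Ddx60, a helicase, from 1.79 to 45.5. Ifitm1, from 21.7 to 1.17, and Ifi27l2b, from 199 to 74.8, were the 2 lower. Each is a close relative of a gene of the set, Ifitm1 of Ifitm3 and Ifi27l2b of Ifi27l2a. In fibroblast-like cells 11 of 22 were called higher at E17.5 (6.22% of all genes) and 14 of 23 at P7 (9.84%), none lower at either step. Neural-like cells had 11 of 14 higher and 1 lower at P7 (18.7% and 9.85% of all genes), and smooth muscle-like cells 6 of 8 higher (17.1%). Psmb8, a subunit of the immunoproteasome, was higher at P7 in all 4 classes, at 107.5 in epithelial-like, 36.5 in fibroblast-like, 15.53 in smooth muscle-like and 31.6 in neural-like cells. At P7, 18 epithelial marker genes were found in neural-like cells at 2.14% to 32.5% of their epithelial level. In fibroblast-like cells the range was 1.98% to 7.03%, and in smooth muscle-like cells 0 to 10.3%. The part of free RNA in these P7 counts and in the Psmb8 levels was not tested.

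The enzymes that attach and remove Isg15 were also higher in the P7 epithelium. All 4 measured were called higher at P7 in epithelial-like cells, where 11.6% of all genes were, with a median log2 ratio of 2.34 beside 0.07 over all genes: the E1 enzyme Uba7 (4.35 to 18.5), the E2 enzyme Ube2l6 (4.43 to 17.9), the ligase Herc6 (0.853 to 9.63) and the protease Usp18 (0.731 to 4.41). In fibroblast-like cells 1 of 4 was higher and 1 lower (9.84% and 5.34% of all genes), the latter Uba7, at 43.8 and then 21.5. Of the sensors of foreign nucleic acid, 7 of 13 read were called higher in epithelial-like cells at P7 and 0 lower. These calls stand beside 11.6% and 8.48% of all genes. The median of the sensors was 1.27, led by Zbp1 (0.569 to 11.9) and Dhx58 (0.488 to 6.90). In fibroblast-like cells the adaptor Tmem173, also called STING, was at 24.6, 49.9 and 12.4. Among the negative regulators 3 of 8 were called higher in epithelial-like cells at P7 (11.6% of all genes). Their median was 0.21, led by Trim30a (0.122 to 11.2), and Socs3 stood at 274, 560 and 580 in fibroblast-like cells. Of 8 other genes of the IRF family list, 1 of 6 read was called higher in epithelial-like cells at P7. This was near the 11.6% of all genes, with a median of -0.04. In fibroblast-like cells 0 of 5 were called higher (9.84% of all genes).

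Genes known mainly as targets of interferon gamma were, like Irf1, higher at E17.5 in fibroblast-like cells. All 11 of the 16 that were read in fibroblast-like cells were called higher at E17.5 than at E15.5 (6.22% of all genes). Their median log2 ratio was 1.94 beside -0.10 over all genes. The chemokine gene Cxcl10 was at 36.1, 979 and 277, and so, like Irf1, was highest at E17.5, while Iigp1 was at 11.6, 61.8 and 233. At P7, 3 of 11 were called higher and 1 lower, Cxcl10 (9.84% and 5.34% of all genes). In epithelial-like cells 6 of 9 were called higher at P7 and 1 lower (11.6% and 8.48% of all genes). The lower one was again Cxcl10 (9.79 to 1.48). The highest P7 level of these targets in epithelial-like cells was that of Gbp7, at 6.83 and then 14.3, and Igtp was at 0.244 and 5.22.

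**Figure D5:**
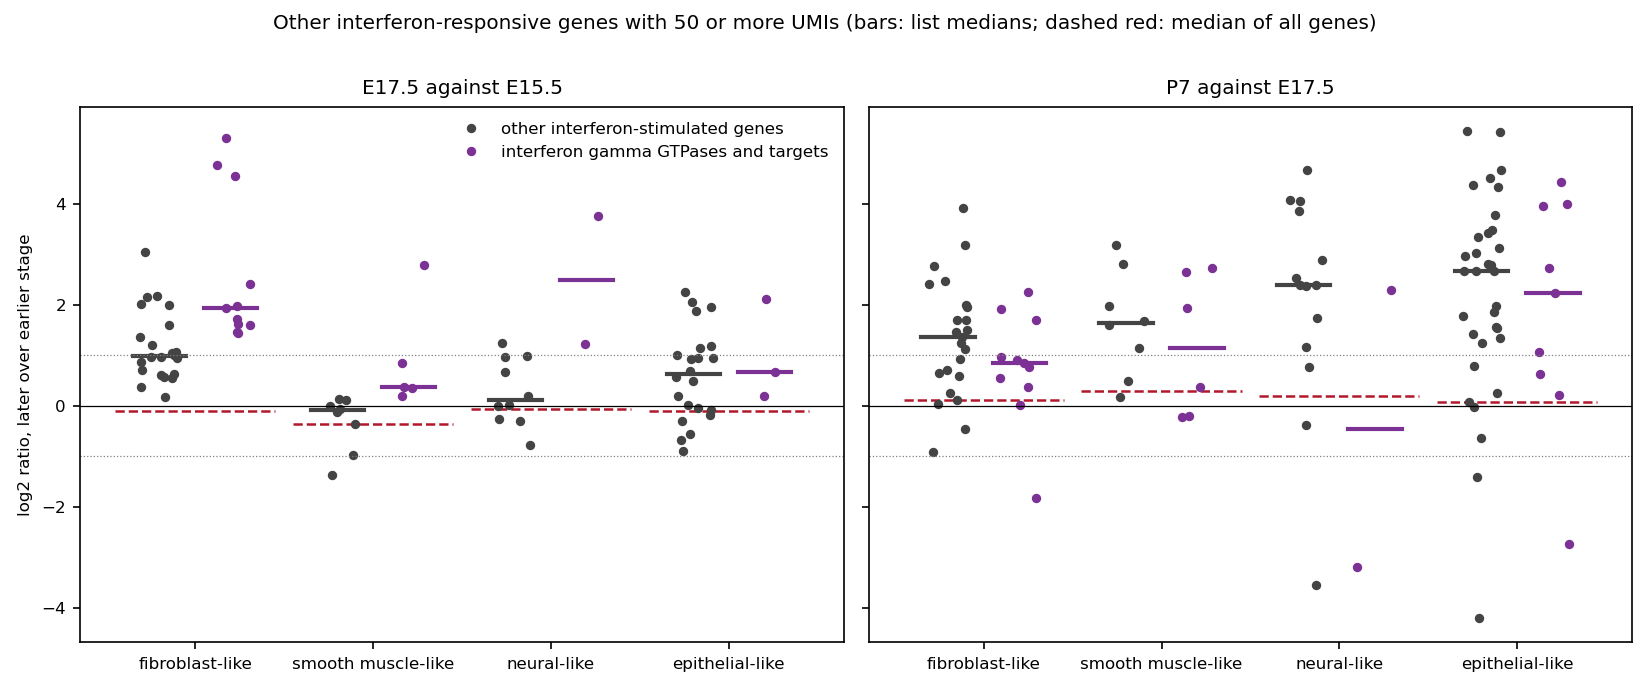
Log2 ratio of the later over the earlier stage for further interferon-stimulated genes (dark) and interferon gamma GTPases and targets (purple) with at least 50 UMIs over both stages, per cell class; bars are list medians, the dashed red line is the median of all genes read and dotted lines mark 2-fold. In fibroblast-like cells at E17.5 all 11 gamma targets lie above 2-fold (6.22% of all genes), and in epithelial-like cells at P7 the dark median is 2.66.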

How the data were processed

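The libraries were deposited as UMI counts per gene and cell, already filtered to cells with 501 to 6989 genes and under 15% mitochondrial UMIs. Per the submitters' processing notes, Cell Ranger 7.2.0 and the mm10 (GRCm38) build were used; whether counting used strand is not given in the sources used here, and Irf7 and Irf1 overlap genes on the other strand. Scrublet, with 6% doublets expected, removed 243, 453 and 389 cells at E15.5, E17.5 and P7. Each library was clustered in scanpy 1.11.5 (2000 variable genes, 30 principal components, 15 neighbours, Leiden resolution 1). Clusters were named by their 5 best markers; the markers were fixed, but the scoring rule was set with the data in view, so class sizes depend on rebuilt names.

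Intervals were exact Poisson for levels, Clopper-Pearson for shares of cells and conditional binomial for ratios (scipy 1.17.1). Shares were also read with each cell thinned to 3000 UMIs. UMIs of 1 library are not replicates, and depth sets precision: median UMIs per cell were 8503, 6262.5 and 14014. Named genes are all 8 members, the 3 largest and smallest ratios of each list, the receptors and transducers, the 3 genes most like Ifi27l2a, Isg15 and Bst2 among those with at least 500 UMIs, and the 5 genes of highest ratio in cells with 2 or more of 4 effector genes; other genes and clusters named were chosen after their values were seen. Members and lists were chosen with earlier results of these data known. The ratio code was checked on simulated counts. Alternatives tried were clustering resolution and genes, doublets, mitochondrial limit, a per-cell marker gate, minimum UMIs, fold, scaling and visceral muscle clusters alone. Results that need some of the listed genes are not reported here.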

Additional observations from a re-analysis of the deposited data

Results flagged for a closer look

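In 3 genes the stage difference ran in opposite directions in different classes, with 1 library per stage, and the difference between classes was not tested. From E15.5 to E17.5 Bst2 was lower in smooth muscle-like cells and higher in fibroblast-like and epithelial-like cells, so the log2 ratios differed by 2.32 between fibroblast-like and smooth muscle-like cells and by 2.07 between epithelial-like and smooth muscle-like cells. For Ifi27l2a at the same step, fibroblast-like minus smooth muscle-like was 3.42. Irf1 from E17.5 to P7 was lower in fibroblast-like cells and higher in the rest, by 1.96 for smooth muscle-like, 1.61 for neural-like and 1.75 for epithelial-like minus fibroblast-like cells. In the visceral muscle clusters alone the ratio of Bst2 was -2.66 and that of Ifi27l2a 0.10 at E17.5, and that of Irf1 was -1.41 at P7, so the opposite direction of Ifi27l2a and the higher Irf1 were not present there. The visceral clusters leave out a Grem1-led smooth muscle-like cluster at E17.5 with Bst2 at 118.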

How the results depend on the processing

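No paired analysis was possible because each stage has 1 library. Of 196 recomputed counts of genes called, 175 stayed within 1.5 times; of 378 log2 ratios 294 stayed, 81 moved, 20 of them with the per-cell gate, and 3 reversed, all with visceral muscle clusters alone (Ifi27l2a 0.10 at E17.5, Irf1 -1.41 and Bst2 -1.09 at P7). With those clusters, the smooth muscle counts were 1 lower at E17.5 (2 with all clusters), and 0 higher (4) and 2 lower (0) at P7. No share of all genes was computed for the visceral clusters. Epithelial E17.5 counts were 1 higher (2) and 1 lower (0) at resolution 0.5, 1 higher under 10% mitochondrial UMIs, 1 higher with the per-cell gate and 4 higher at 1.5-fold. Fibroblast E17.5 counts were 3 higher (5) at resolution 2, 3 with all variable genes and 2 with the per-cell gate; at 1.5-fold 1 gene was lower at P7 (0). Smooth muscle counts were 1 lower (2) at E17.5 without doublet removal, and at P7 2 higher (4) with the per-cell gate and 7 with no minimum beyond 3 UMIs. Neural P7 counts were 3 higher (1) without doublet removal, with at least 20 UMIs and at 1.5-fold, and 5 with no minimum; at E17.5 they were 2 higher (1) with no minimum and at 1.5-fold. The cause was not tested. Median-ratio scaling shifted ratios by -0.14 and 0.10 (fibroblast), -0.30 and 0.27 (smooth muscle), -0.09 and 0.33 (neural) and -0.13 and 0.05 (epithelial) and moved 0 counts past 1.5 times. The gate on immune UMIs and the placing of unnamed clusters with their best class were chosen after seeing the data. Thinning moved 77 of 96 shares of cells. Counts of few UMIs limit Ifit3, Ifit1 and Irf7 outside the epithelium.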

Other observations

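Cells outside the 4 classes also held these genes. At P7 a cluster of 393 cells led by Adamdec1, Ccl11 and Col6a5, which was left unnamed, had Ifi27l2a at 976.8 (930.4 to 1025), Ifitm3 at 1398 and Bst2 at 141.6 CPM, so its Ifi27l2a was above that of the fibroblast-like cells. It scored best for fibroblasts (4.38) and was left unnamed for low depth and no leading fibroblast marker. An E17.5 cluster of 826 cells with the same 3 genes among its leading genes was named fibroblast-like, so the class differs in make-up between these stages. Interstitial cell of Cajal-like cells at E17.5 (389 cells), the pacemakers of gut muscle, had Irf1 at 224 and Ifitm3 at 1253 and 0 UMIs of Isg15, Ifit1 and Ifit3. Pericyte-like cells, which wrap small vessels, had Irf1 at 62.3 at E15.5 (169 cells) and 207 at E17.5 (89 cells), and Bst2 at 18.6 and 64.2. Irf1 was thus higher at E17.5 than at E15.5 in pericyte-like cells too, with 1 library per stage and no test.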
